A study of Mus musculus with 15 samples.

Results

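Epithelial-mesenchymal transition is the switch by which cells give up junctions and apical-basal polarity for a motile, mesenchymal state. The 10 regulators of this switch described here were chosen by name, from 54838 genes in the count tables, and each matched 1 gene identifier. The mesenchymal regulators, which repress junction genes, were the zinc finger factors Zeb1 and Zeb2, the Snail family factors Snai1 and Snai2, and the helix-loop-helix factor Twist1. The epithelial regulators were the zinc finger repressors Ovol1 and Ovol2, the grainyhead factor Grhl2, and the splicing factors Esrp1 and Esrp2. Transcripts were counted in 15 mouse libraries, 3 in each of 5 groups. The cultured group was 4T1, a mammary carcinoma line that spreads to lung, grown in the dish. The in vivo group was 4T1 cells recovered from lungs of BALB/c mice 7 days after injection into the tail vein. The remaining groups were lung epithelial cells sorted 7 days after injection of 800000 labelling 4T1 cells, with 5 lungs pooled for each library and EpCAM, an epithelial adhesion protein, in the titles. Labelling tumour cells mark the host cells near them, so that niche epithelium lies beside tumour cells and distal epithelium away from them. A further niche group carried the treatment label shSox9, where both other epithelial groups carried the label control. All epithelial libraries, distal ones included, therefore came from tumour-bearing lungs. The sources used here do not say which cells received the hairpin, and 4T1 is a single line.

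Zeb and Snail proteins bind E-box sequences in promoters such as that of Cdh1, the E-cadherin gene, and recruit corepressors. Ovol2 and Grhl2 repress Zeb1, and Zeb1 in turn represses genes of the epithelial state, so that both sides hold each other in check. Esrp1 and Esrp2 set the epithelial pattern of exon choice in genes such as Fgfr2, Cd44 and Ctnnd1. Lung epithelium expresses the epithelial side, and fibroblasts, endothelial cells and macrophages of the lung express members of the mesenchymal side.

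The windows of 250 bases before the transcription start are shown for Snai1 and Zeb2, the members most abundant per length in niche epithelium and both higher there than in distal epithelium. The sequences are from RefSeq on GRCm38.p6, where 4 of the 10 members matched a window (the first listed for each gene), and are written 5′ to 3′ on the strand of the gene. Capitals mark the E-box of Snail and Zeb proteins, CAGGTG or CACCTG, searched on both strands. The Snai1 window is chr2:167537945-167538194 on the plus strand, and the Zeb2 window is chr2:45117443-45117692 on the minus strand.
Snai1: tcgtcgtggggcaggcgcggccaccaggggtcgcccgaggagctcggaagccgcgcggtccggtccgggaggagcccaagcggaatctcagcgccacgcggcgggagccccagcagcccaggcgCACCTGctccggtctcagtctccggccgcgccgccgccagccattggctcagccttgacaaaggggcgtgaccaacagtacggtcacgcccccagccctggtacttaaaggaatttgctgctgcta
Zeb2: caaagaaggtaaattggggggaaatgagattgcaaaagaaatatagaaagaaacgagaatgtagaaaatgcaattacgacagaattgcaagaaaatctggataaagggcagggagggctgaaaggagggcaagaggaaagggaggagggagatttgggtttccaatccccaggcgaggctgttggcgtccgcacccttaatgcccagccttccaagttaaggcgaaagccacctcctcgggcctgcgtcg

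The Snai1 window held 1 E-box, which began 126 bases before the start, and the Zeb2, Ovol2 and Twist1 windows held none. Of 32817 windows of this length, 17.2% held the E-box. The Grhl sequence AACCGGTT, found in 0.116% of all windows, and the Ovol sequence CCGTTA or TAACGG, found in 2.17%, were in none of the 4 windows, and no motif overlapped another. A match is a description of letters and not of binding. The guanine and cytosine content was 70.0% in the Snai1 and 49.6% in the Zeb2 window, against a median of 52.4% over all windows.

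Depth was 15907316 to 30421705 counts per library. A count of 0 allows up to 3 counts, which was 0.0986 to 0.189 CPM (counts scaled to a common library total) depending on the library. Levels below are scaled CPM, that is CPM after TMM scaling over all 15 libraries, given for libraries 1, 2 and 3 of a group in this order. Sox9, the gene named by the label, stood at 50.5 ± 15.5 scaled CPM (SD, n = 3) in the niche and at 60.5 ± 23.8 in the niche libraries labelled shSox9, so that it was not lower under the label (log2 fold change 0.26, SE 0.27, edgeR adjusted p = 0.55). No direction drawn from the label below is therefore a measured effect of lower Sox9. Sox9 stood at 201 ± 18.3 scaled CPM in cultured 4T1 cells, 311 ± 49.1 in 4T1 cells in vivo and 6.29 ± 0.609 in distal epithelium. Which cells of the niche libraries held the Sox9 transcripts was not tested. The libraries titled EpCAM expressed Epcam at 23.8 to 110 scaled CPM and the alveolar type 2 gene Sftpc at 8000 to 264000. They also held Pdgfra, a fibroblast receptor, at 405 to 1220 scaled CPM and Csf1r, a macrophage receptor, at 20.1 to 326. Epithelial transcripts were thus mixed with those of other cells in every group, and in bulk samples fewer cells of a type and less RNA per cell cannot be told apart.

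**Figure D1:**
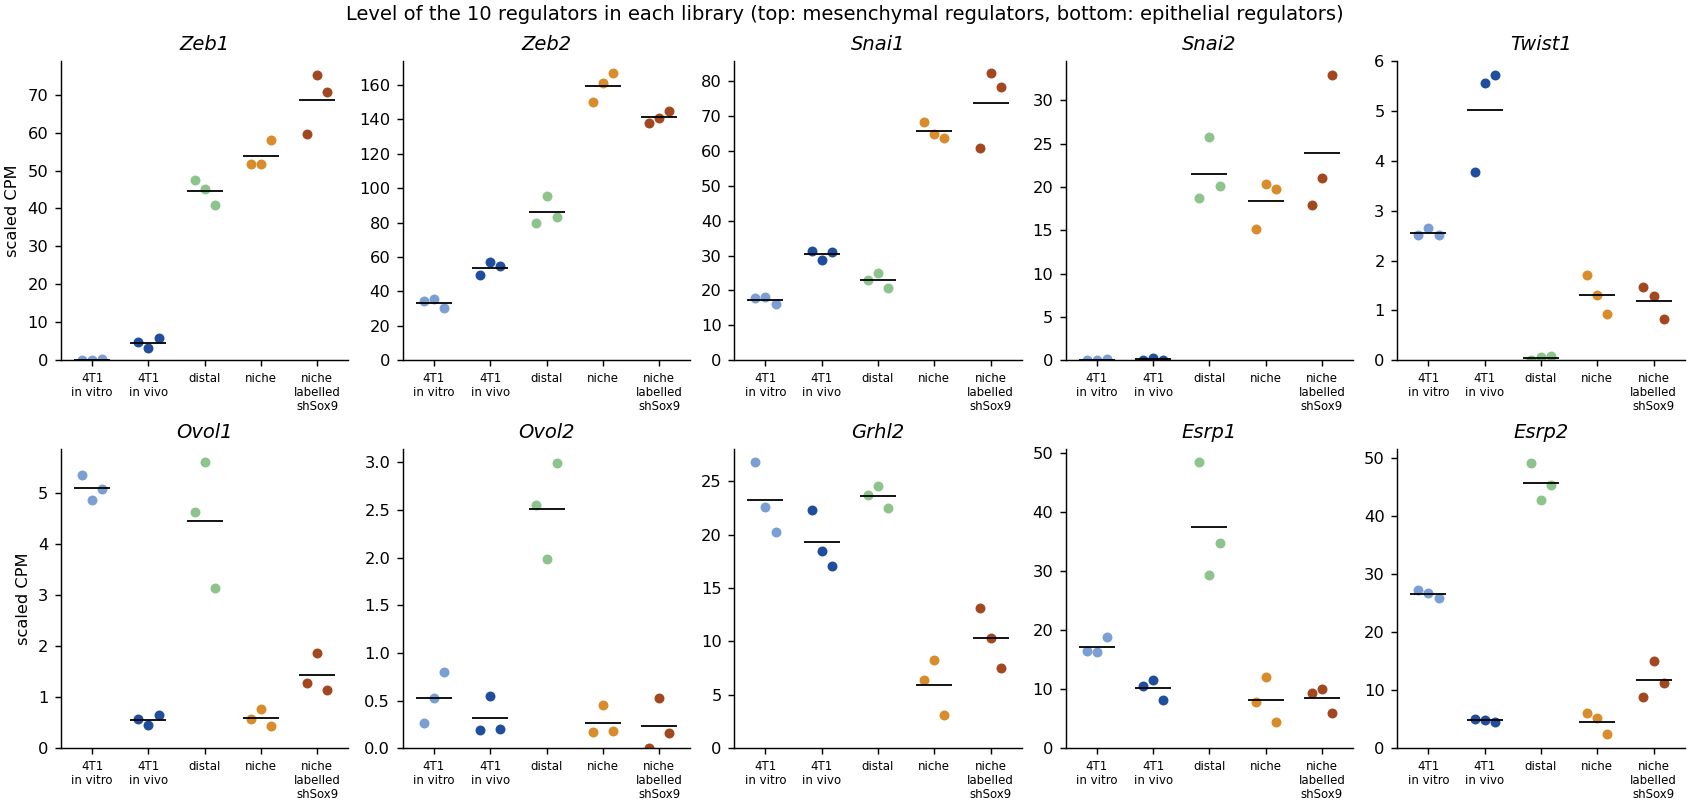
Scaled CPM of each regulator (y axis, starting at 0) in the 5 groups (x axis); each point is a library and each bar the mean of 3. The epithelial regulators were lower in niche than in distal epithelium without overlap, and Zeb1 and Snai2 were near 0 in cultured 4T1 cells.

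Zeb1, a repressor of E-cadherin, was almost absent from cultured 4T1 cells and abundant in every epithelial group. Its levels were 0.180, 0.131 and 0.209 scaled CPM in culture, from 13 counts in all, and 4.80, 3.26 and 5.97 in vivo. They were 47.5, 45.1 and 41.0 in distal epithelium, 51.7, 51.6 and 58.0 in the niche, and 59.5, 75.1 and 70.8 in the niche labelled shSox9. The groups did not overlap, and the gap between 4T1 cells in vivo and distal epithelium was 9.51-fold. Zeb2, its paralog, had a narrower range. Its levels were 34.4, 35.4 and 30.2 in culture, 49.6, 57.1 and 54.7 in vivo, 79.7, 95.7 and 83.4 in distal epithelium, 150, 161 and 167 in the niche, and 138, 141 and 145 under the label. The order was niche, labelled niche, distal, in vivo and culture, with no overlap between neighbours.

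Snai1, a quickly degraded repressor of E-cadherin, was highest in both niche groups. Its levels were 68.3, 64.9 and 63.7 scaled CPM in the niche and 60.7, 82.4 and 78.2 in the labelled niche, which overlapped. They were 31.2, 28.8 and 31.1 in 4T1 cells in vivo, 23.1, 25.1 and 20.6 in distal epithelium, and 17.7, 18.1 and 16.0 in culture, each apart from the next. Snai2, also called Slug, split the libraries by cell type instead. It had 1, 1 and 4 counts in culture and 1, 6 and 0 in vivo, where the count of 0 allows up to 0.166 CPM. Its levels were 18.7, 25.8 and 20.1 scaled CPM in distal epithelium, 15.2, 20.3 and 19.8 in the niche and 17.9, 21.1 and 32.9 in the labelled niche, and these 3 groups overlapped. Twist1, a mesodermal factor linked to metastasis, was highest in both 4T1 groups. Its levels were 3.77, 5.56 and 5.72 scaled CPM in 4T1 cells in vivo and 2.52, 2.66 and 2.51 in culture. They were 1.72, 1.31 and 0.929 in the niche and 1.47, 1.29 and 0.819 in the labelled niche, which overlapped. Distal epithelium had 0, 1 and 1 counts. The gap in Twist1 was 1.95-fold between culture and the niche, and 23.8-fold between the labelled niche and distal epithelium.

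Ovol1, a repressor that holds the epithelial state, was at like levels in culture and in distal epithelium, where the libraries overlapped. Its levels were 5.36, 4.86 and 5.07 scaled CPM in culture and 4.62, 5.60 and 3.14 in distal epithelium. Its levels were lower in vivo (0.565, 0.460 and 0.658), and those of the niche were 0.572, 0.765 and 0.434, with 1.27, 1.86 and 1.15 in the labelled niche. Ovol2 was the least counted of the epithelial regulators, with 14 to 104 counts in a group. Its levels were 2.55, 1.99 and 2.99 scaled CPM in distal epithelium and 0.270, 0.525 and 0.796 in culture. The other 3 groups overlapped each other, between 0 and 0.551.

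Grhl2, an activator of Cdh1 and Cldn4, was at like levels in 4T1 cells and distal epithelium. Its levels were 26.8, 22.6 and 20.2 scaled CPM in culture, 22.3, 18.5 and 17.1 in vivo and 23.7, 24.5 and 22.5 in distal epithelium. Culture overlapped with both of the other groups. It was lower in the niche, at 6.42, 8.24 and 3.10, and in the labelled niche, at 13.1, 10.3 and 7.48. Esrp1 followed the order distal epithelium (48.4, 29.3 and 34.7 scaled CPM), culture (16.4, 16.3 and 18.9), in vivo (10.6, 11.6 and 8.20), labelled niche (9.38, 10.0 and 6.06) and niche (7.87, 12 and 4.52). The last 3 groups overlapped. Esrp2 stood at 49.2, 42.7 and 45.3 in distal epithelium, 27.2, 26.8 and 25.9 in culture, 8.89, 15.1 and 11.2 in the labelled niche, 5.09, 4.83 and 4.55 in vivo and 6.12, 5.18 and 2.42 in the niche. Only the last pair of neighbours overlapped. Niche library 3 was the lowest of its group for Grhl2, Esrp1, Esrp2 and Ovol1, and its summed pan-epithelial markers were 630 scaled CPM against 1260 and 1350 in niche libraries 1 and 2. Of the 630, Krt8 held 208 and Krt18 336. These keratins stood at 1590 ± 201 and 1900 ± 156 in 4T1 cells in vivo and at 253 ± 40.8 and 359 ± 28.0 in distal epithelium. Sftpc was 8000 in niche library 3 against 9890 and 9750.

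Per transcript length, Snai1 led the members in both niche groups and in 4T1 cells. Its deposited TPM (transcript abundance per length, on a common total) was 67.1 ± 3.7 (SD, n = 3) in the niche, 75.1 ± 11.2 in the labelled niche, 31.8 ± 1.25 in vivo and 17.4 ± 1.65 in culture. In distal epithelium Zeb2, at 21.2 ± 2.05 TPM, and Esrp2, at 20.5 ± 2.17 TPM, were the most abundant members. Cultured 4T1 cells thus combined Snai1 and Zeb2 (12.2 ± 1.95 TPM) with Esrp2 (13.6 ± 1.58 TPM) and Grhl2 (9.60 ± 2.23 TPM), while Zeb1 stood at 0.133 ± 0.0737 TPM.

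**Figure D2:**
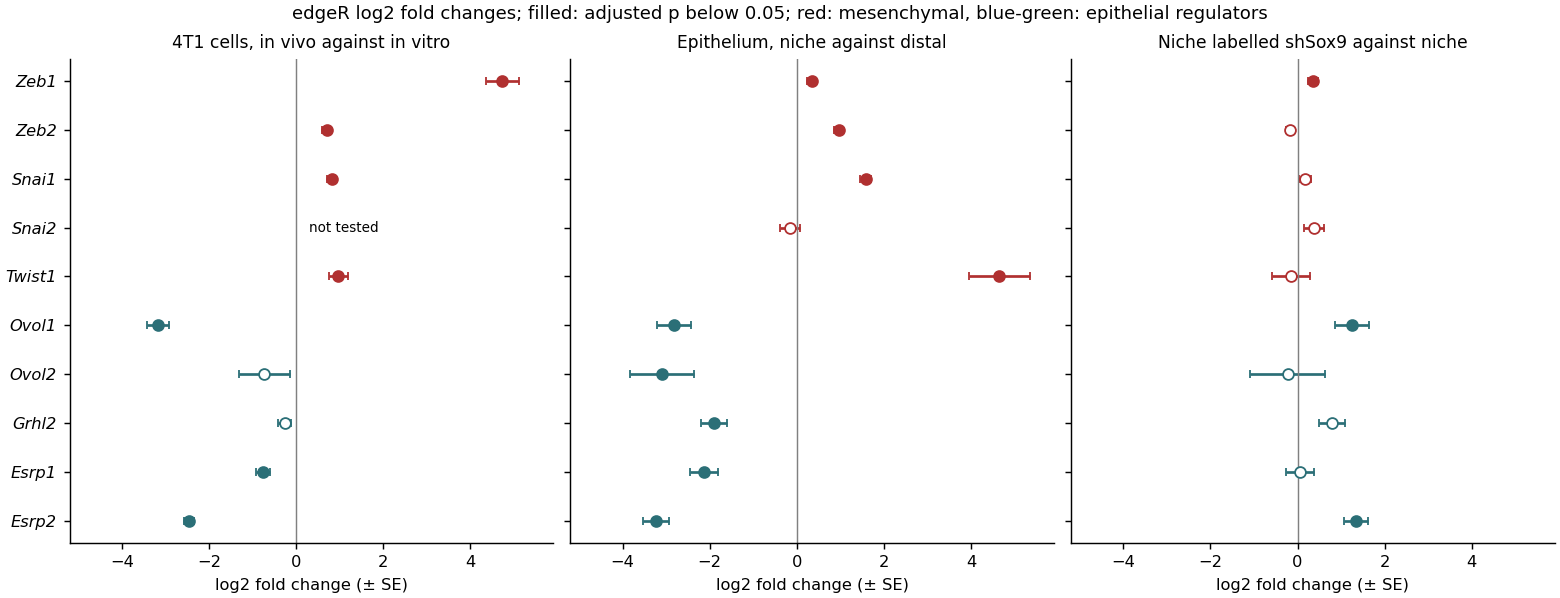
edgeR log2 fold changes (x axis, bars are SE) of the 10 regulators (y axis) in 3 comparisons; filled points passed an adjusted p of 0.05. In both left panels all called mesenchymal regulators lie to the right of 0 and all called epithelial regulators to the left.

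The comparison of 4T1 cells in vivo and in culture asked what changes in carcinoma cells as they grow out in lung. The mesenchymal regulators that passed the test rose and the epithelial ones that passed fell, with Zeb1 and Ovol1 at the ends. A gene was called at an adjusted p below 0.05 (edgeR quasi-likelihood test over 14022 genes). Zeb1, Zeb2, Snai1 and Twist1, all 4 mesenchymal regulators that could be tested, rose, against 27.0% of all genes tested that rose. Of the 5 epithelial regulators Ovol1, Esrp1 and Esrp2 fell, against 24.0% of all genes. The libraries of both groups did not overlap for 7 of the 9 members tested, against 60.3% of all genes. Snai2 was too low to be tested.

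Zeb1 had a log2 fold change of 4.73 (SE 0.38, edgeR adjusted p = 1.6e-05), a 26.6-fold rise. Twist1 rose by 0.97 (SE 0.22, edgeR adjusted p = 0.0056), Snai1 by 0.82 (SE 0.10, 0.00019) and Zeb2 by 0.70 (SE 0.10, 0.00045), which are changes of 1.62- to 1.96-fold. Ovol1 fell by 3.17 (SE 0.26, edgeR adjusted p = 1.6e-05), to a 9-fold lower level. Esrp2 fell by 2.46 (SE 0.12, edgeR adjusted p = 8.7e-07), or 5.49-fold, and Esrp1 by 0.75 (SE 0.16, 0.0031). Esrp2 was thus the Esrp gene with the larger fall. Grhl2, with a log2 fold change of -0.26 (SE 0.15, edgeR adjusted p = 0.16), and Ovol2, with -0.73 (SE 0.58, 0.32), did not pass the test. The 7 calls were made in each of 13 alternative analyses, and each library left out kept them. No label ties the libraries of a 4T1 group to separate dishes or mice, and the p-values of 4T1 cells thus reflect a spread among libraries that could be technical.

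Transcripts of host cells rose in the same libraries. Pan-leukocyte markers were called higher for 5 of 5 genes, and their sum went from 0.670 to 1.17 scaled CPM in culture, with Laptm5 and Cd53 at 0, to 14.9 to 69.7 in vivo. Macrophage markers were higher for 5 of 7 tested of 10, from sums of 10.3 to 12.6 (Marco, C1qa, C1qb and Siglecf at 0 in culture) to 58.8 to 523. Lyz2 alone held 471 of the 523. Endothelial markers were higher for 7 of 8 tested of 10 and lower for 1, from 21.6 to 26.0 (Kdr, Tek, Cldn5 and Emcn at 0) to 26.7 to 31.8. Only 1 of these 10 reached 1 scaled CPM on average in culture, and the median log2 fold change of those tested was 5.26. Fibroblast and mural markers were higher for 3 of 3 tested of 10, from 7.00 to 11.8 (Pdgfrb and Tcf21 at 0) to 24.3 to 27.2. Pdgfra alone, which 4T1 cells expressed in culture, held 8.40 of the mean sum of 9.29 there. In vivo it held 19.4 of 25.4. Alveolar type 2 markers were higher for 5 of 7 tested of 8, with sums of 66.9 to 82.9 and 126 to 169. In culture 3 of these 8 already reached 1 scaled CPM on average. Neutrophil (2 of 2 tested of 6), lymphocyte (2 of 2 tested of 10) and airway markers (2 of 3 tested of 7) were higher as well, with sums of at most 15.4 scaled CPM in vivo. Of the alveolar type 1 markers 1 rose and 2 fell, of the mesothelial ones 1 rose and 1 fell, and of the pan-epithelial ones 1 rose and 2 fell.

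As a share of the niche level, Zeb1 in vivo reached 8.70%, Zeb2 33.7% and Snai1 46.2%. The fibroblast genes Dcn and Prrx1 reached 1.03% and 3.28%, the leukocyte gene Ptprc 3.82%, the T cell gene Cd3e 9.98% and the endothelial gene Cdh5 24.5%. The median share was 0.860% over the fibroblast and mural, 2.96% over the macrophage, 15.5% over the lymphocyte and 16.9% over the endothelial list. In vivo library 3 was highest for Zeb1, at 5.97 scaled CPM, and also for the pan-leukocyte sum (69.7), the macrophage sum (523), Dcn (3.39) and Col1a1 (4.65). Library 2 was lowest for Zeb1, at 3.26, and library 1 for both sums, at 14.9 and 58.8. The part of host transcripts in the rise of Zeb1 was not tested. Twist1, with 2 counts in all in distal epithelium, was at 381% of its niche level in vivo.

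Other genes of the pathway were read from 6 lists, chosen with earlier results of these data known. Of all genes tested 27.0% rose and 24.0% fell. Of 10 other mesenchymal regulators 7 could be tested, and 3 rose and 1 fell, with a median log2 fold change of 0.43 against 0.01 for all genes. Tcf4, a partner of Twist proteins, rose by 0.82 (SE 0.11, edgeR adjusted p = 0.00033). Of 10 other epithelial regulators 5 could be tested and 3 fell, among them the Kruppel-like factor Klf5 by 0.31 (SE 0.10, edgeR adjusted p = 0.023). Of 20 epithelial target genes 19 were tested, and 12 fell and 1 rose, with a median of -0.64. The keratin Krt19 fell by 1.83 (SE 0.14), the polarity gene Crb3 by 1.68 (SE 0.22) and the claudin Cldn3 by 1.57 (SE 0.15), with edgeR adjusted p of at most 0.00027. Cdh1 itself stood at 106 ± 8.20 scaled CPM in vivo and 272 ± 53.5 in culture (SD, n = 3).

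The list of 20 mesenchymal genes had 14 tested, of which 9 rose and 2 fell (median 1.12), against 27.0% and 24.0% of all genes. The matrix genes Tgfbi, Tnc and Sparc rose by 3.64 (SE 0.27), 1.52 (SE 0.27) and 0.72 (SE 0.10), with edgeR adjusted p of at most 0.0013. Of 6 splicing partners 1 rose and 3 fell. Qk rose by 0.34, and Mbnl1, Hnrnpm and Ptbp1 fell by 0.41, 0.40 and 0.26 (SE 0.09 to 0.10, edgeR adjusted p of at most 0.042). Of 12 corepressors and enzymes of Snail turnover 1 rose and 2 fell, smaller shares than among all genes. The ubiquitin ligase gene Btrc rose by 0.32, and the corepressor Ctbp1 and the ligase Fbxo11 fell by 0.40 and 0.39 (SE 0.10 to 0.11, edgeR adjusted p of at most 0.025).

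The comparison of niche and distal epithelium asked how lung epithelium beside the tumour differs from that further away. All 5 epithelial regulators fell in the niche and 4 of the 5 mesenchymal regulators rose. edgeR called 25.8% of 17640 genes lower and 28.5% higher, and the libraries did not overlap for 9 of 10 members against 63.7% of all genes. Esrp2 fell by 3.23 (log2; SE 0.29, edgeR adjusted p = 4.6e-06), a 9.40-fold difference. Ovol2 fell by 3.09 (SE 0.74, edgeR adjusted p = 0.0041), Ovol1 by 2.82 (SE 0.39, 9.9e-05), Esrp1 by 2.13 (SE 0.32, 0.00020) and Grhl2 by 1.91 (SE 0.30, 0.00026). These epithelial regulators lay 3.76- to 9.40-fold lower.

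Snai1 rose by 1.58 (SE 0.13, edgeR adjusted p = 2.5e-06), or 3-fold, and Zeb2 by 0.96 (SE 0.10, 1.1e-05). Twist1 went from 2 counts in the 3 distal libraries to 83 in the niche, a ratio of 28.2 between TMM-scaled library totals (95% counting interval 7.57 to 237, which covers counting error only; edgeR adjusted p = 0.00020). Zeb1 rose by 0.34 (SE 0.11, edgeR adjusted p = 0.026), the smallest called change. This call was lost without distal library 2 (adjusted p = 0.057), distal library 3 (0.089) or niche library 3 (0.089), in the fit of all 15 libraries (0.14), with upper-quartile scaling (0.12) and without both libraries numbered 3 (0.20). Snai2 did not pass the test (log2 fold change -0.16, SE 0.23, edgeR adjusted p = 0.59). Sftpc stood at 228000 ± 33100 scaled CPM (SD, n = 3) in distal epithelium and 9210 ± 1050 in the niche, and the median of all genes moved with the scaling, from 0.02 in the analysis reported to 0.30 with library totals, 0.60 with TPM and -0.09 with upper quartiles. Relative to that median, over 16 analyses, Zeb1 lay at 0.15 to 0.37, Snai2 at -0.27 to -0.03, Zeb2 at 0.88 to 1.01, Snai1 at 1.49 to 1.63, Grhl2 at -2.23 to -1.61 and Esrp2 at -3.51 to -2.94. No member changed its side.

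**Figure D3:**
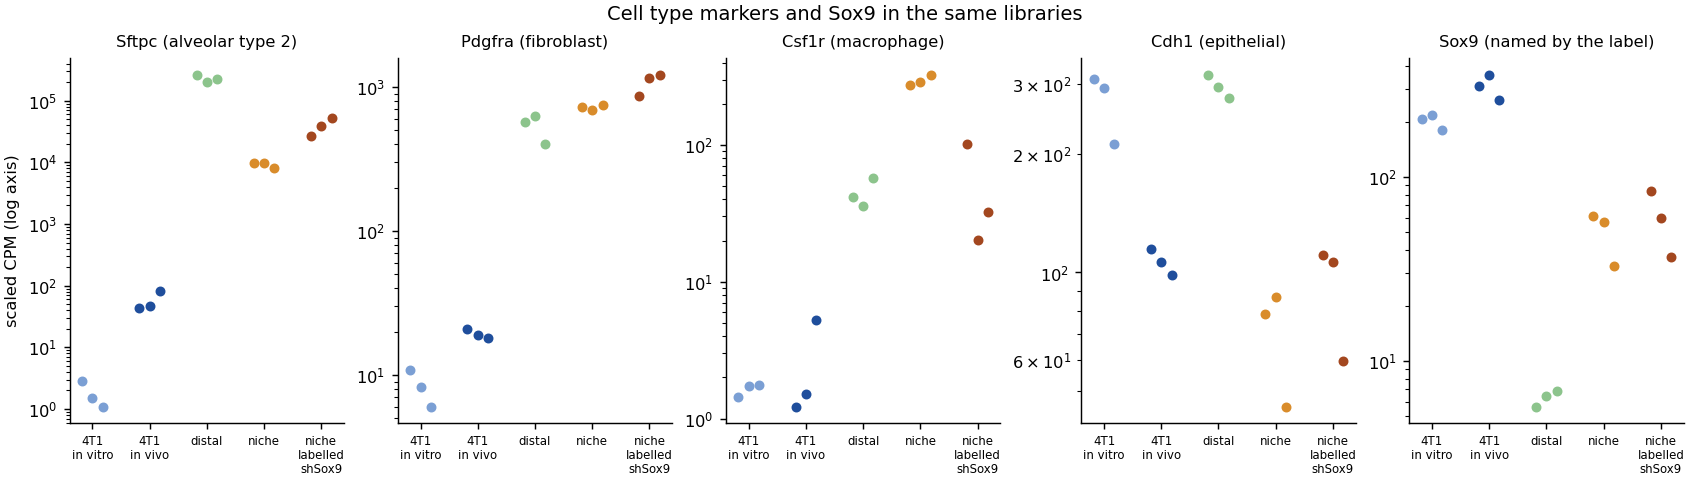
Scaled CPM (log axes) of a marker of alveolar type 2 cells, fibroblasts, macrophages and epithelium, and of Sox9, in the 5 groups; each point is a library. Sftpc was lower and Csf1r higher in niche than in distal epithelium, and Sox9 overlapped between both niche groups.

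Markers of cell types moved with these groups. All 8 alveolar type 2 markers fell, from sums of 234000 to 314000 scaled CPM to 9410 to 11800, and 5 of 6 alveolar type 1 markers fell, from 4280 to 4520 to 308 to 393. Airway markers fell for 6 of 7, from 986 to 2230 to 89.6 to 129, and pan-epithelial markers fell for 4 of 6 and rose for 1. Of 10 macrophage markers 9 rose and 1 fell. Their sum went from 10700 to 14300 down to 4330 to 4870, since Lyz2, which alveolar type 2 cells also express, held most of it, and Marco was at 0 in distal libraries. Pan-leukocyte markers rose for 5 of 5, from 265 to 453 to 988 to 1150. Of 10 fibroblast and mural markers 3 rose and 2 fell, with sums of 1350 to 1520 and 1330 to 1610 and none at 0. The collagen gene Col1a1 stood at 1340 ± 135 scaled CPM in distal and 6530 ± 671 in niche epithelium (SD, n = 3). Of 10 endothelial markers 1 rose and 1 fell, of 9 tested lymphocyte markers 1 rose and 5 fell, of 5 tested neutrophil markers 1 rose, and of 5 mesothelial markers 1 rose and 2 fell. The part of these cell types in the members' changes was not tested.

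The 5 epithelial regulators had a median log2 fold change of -2.82. The median was -4.37 for the alveolar type 2, -3.62 for the airway, -3.39 for the alveolar type 1 and -1.09 for the pan-epithelial markers. Of 20 epithelial target genes 17 fell and 2 rose, with a median log2 fold change of -1.72 against 0.02 for all genes. Of all genes tested 25.8% fell and 28.5% rose. Cldn3 fell by 3.86 (SE 0.20), the protease Prss8 by 3.64 (SE 0.27), Crb3 by 3.47 (SE 0.20) and Cldn7 fell by 3.18 (SE 0.19), with edgeR adjusted p of at most 1.2e-06. Of 10 other epithelial regulators 8 could be tested and all 8 fell, with a median of -3.26. The endodermal factors Foxa2 and Foxa1 fell by 4.35 (SE 0.23) and 4.10 (SE 0.31), and the ETS factors Elf5 and Ehf by 4.10 (SE 0.29) and 3.58 (SE 0.28), with edgeR adjusted p of at most 1.7e-06.

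Among the 20 mesenchymal genes, 15 rose, 2 fell and the median was 1.61. Tnc rose by 3.89 (SE 0.12), the calcium-binding protein S100a4 by 2.94 (SE 0.36), the receptor kinase Axl by 2.50 (SE 0.13) and Tgfbi by 2.44 (SE 0.42), with edgeR adjusted p of at most 0.00046. Of 8 tested mesenchymal regulators outside the 10, 5 rose and 1 fell. Prrx1, a fibroblast factor, rose by 0.99 (SE 0.20), and Tcf3, Sox4 and Tcf4 by 0.70, 0.67 and 0.67 (SE 0.10 each, edgeR adjusted p of at most 0.0013). Of 6 splicing partners 4 rose, among them Rbfox2 by 0.59 (SE 0.11), Hnrnpm by 0.58 (SE 0.11) and Ptbp1 by 0.55 (SE 0.09), and Qk fell by 0.70 (SE 0.10), with edgeR adjusted p of at most 0.00095. Of 12 corepressors and turnover enzymes 5 rose and 1 fell, against 28.5% and 25.8% of all genes. Hdac1 rose by 0.70 (SE 0.09), Kdm1a by 0.65 (SE 0.15) and Ezh2 by 0.65 (SE 0.17), and the kinase Gsk3b, which marks Snail protein for breakdown, fell by 0.43 (SE 0.11), with edgeR adjusted p of at most 0.0063.

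The niche libraries also held transcripts abundant in 4T1 cells. Over 34 genes with at least 10 CPM in every 4T1 library and at most 1 CPM in every distal library, limits that were chosen after the data were seen, the median level was 25.7%, 25% and 15.1% of that in vivo in the 3 niche libraries. It was 24.2%, 17.5% and 12.6% in the 3 labelled shSox9. In distal epithelium it was 1.69% to 2.23%, a low share that the choice of the genes fixed in advance. Twist1 reached 34.2%, 26.0% and 18.5% of that in vivo in the niche and 29.2%, 25.7% and 16.3% in the labelled ones, and in both groups the libraries stood in the same order as for these 34 genes. With limits of 20 and 1 CPM, 14 genes gave 21.6%, 23.9% and 15.2% in the niche, where library 2 and not library 1 was highest, and 22.2%, 19.6% and 13.1% in the labelled niche. Grhl2 stood at 33.3%, 42.8% and 16.1% of its in vivo level in the niche. Zeb2, at 279% to 311%, Snai1, at 210% to 225%, and Zeb1, at 1100% to 1240%, were above it. The panel planned earlier, with limits of 20 and 0.2 CPM, held 1 gene, at 10.8%, 0% and 0.322%. Whether host cells of the niche expressed the panel or Twist1 was not tested.

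**Figure D4:**
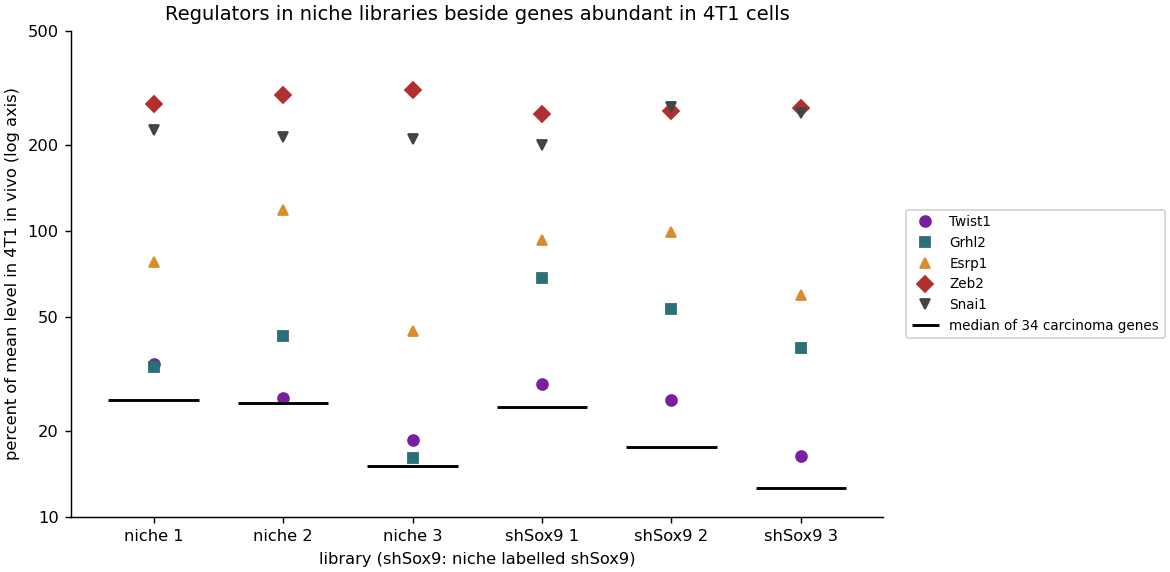
Level of 5 regulators in the 6 niche libraries (x axis) as a percent of their mean in 4T1 cells in vivo (y axis, log), with a black bar at the median of 34 genes abundant in 4T1 cells. Twist1 lies at 16.3% to 34.2%, close above the bars at 12.6% to 25.7%, and Zeb2 and Snai1 lie at 200% or more.

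The niche libraries labelled shSox9 were compared with the other niche libraries, and Esrp2 was the member with the firmest difference. Of the 10 members 3 were called, all higher, against 20.5% of genes called in either direction. Esrp2 rose by 1.34 (SE 0.28, edgeR adjusted p = 0.0068), or 2.54-fold, and was called in all 14 alternatives. Ovol1 rose by 1.25 (SE 0.39, edgeR adjusted p = 0.042) from 37 counts in the niche to 85. Zeb1 rose by 0.35 (SE 0.11, edgeR adjusted p = 0.048). Esrp2 and Ovol1 remained below their distal levels without overlap, while Zeb1 was above its distal level.

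The calls of Zeb1 and Ovol1 were close to the threshold, and both were also lost without the filter on low counts (edgeR adjusted p = 0.077 and 0.057) and in the fit of only both groups (0.060 each), at folds close to those reported. Without niche library 1 or 3, or without labelled library 2 or 3, Esrp2 was the only member called, and without niche library 2 Esrp2 and Grhl2 were. With the replicate number as a block Zeb1 was no longer called (0.35, edgeR adjusted p = 0.067), and Grhl2 was (0.83, adjusted p = 0.039, against 0.79, SE 0.30, adjusted p = 0.086 without the block). Zeb2 (-0.17, SE 0.10, edgeR adjusted p = 0.24), Snai1 (0.17, SE 0.13, 0.37), Snai2 (0.38, SE 0.23, 0.26), Twist1 (-0.15, SE 0.44, 0.85), Ovol2 (-0.23, SE 0.85, 0.88) and Esrp1 (0.06, SE 0.32, 0.92) did not pass the test.

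Marker lists differed between both niche groups. All 8 alveolar type 2 markers were higher under the label, with sums of 32200 to 58800 against 9410 to 11800 scaled CPM. Macrophage markers were lower for 8 of 10 (1800 to 2570 against 4330 to 4870) and pan-leukocyte markers for 5 of 5 (107 to 399 against 988 to 1150), with none at 0. Lyz2 held 1950 of the mean macrophage sum of 2260 under the label and 2420 of 4510 in the niche. The median macrophage marker stood at 15.9% of its niche level. Fibroblast and mural markers were higher for 4 of 10 and lower for 1 (1950 to 2290 against 1330 to 1610). Pan-epithelial markers were higher for 1 of 6 and lower for 1 (837 to 1350 against 630 to 1350). Endothelial (1 higher and 2 lower of 10), lymphocyte (1 and 1 of 9 tested), alveolar type 1 (2 and 0 of 6) and airway markers (0 and 1 of 7) moved in part, and 0 of 5 tested neutrophil and 0 of 5 mesothelial markers were called. The part of these cells in the members' values was not tested.

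Of 8 tested epithelial regulators outside the 10, 5 rose under the label, with a median of 0.98 against 0.02 for all genes. Among all genes 20.5% were called in either direction. Elf5 rose by 1.96 (SE 0.28), Ehf by 1.06 (SE 0.27) and Elf3 by 0.89 (SE 0.24), with edgeR adjusted p of at most 0.022. Of 20 epithelial targets 6 rose and 1 fell, with a median of 0.03. Cldn3 rose by 1.65 (SE 0.19), Prss8 by 1.6 (SE 0.26), Crb3 by 1.32 (SE 0.20) and Cldn7 by 1.04 (SE 0.18), with edgeR adjusted p of at most 0.0025. In the list of mesenchymal genes 2 rose and 4 fell. Tgfbi and Axl fell by 2.69 (SE 0.42) and 0.78 (SE 0.13), and Cdh11 and Mmp2 rose by 0.58 (SE 0.18) and 0.53 (SE 0.15), with edgeR adjusted p of at most 0.041. Of the other mesenchymal regulators 2 of 8 tested rose, Tcf4 by 0.38 and Sox4 by 0.37 (SE 0.10 each, edgeR adjusted p of at most 0.025). Of the splicing partners Mbnl1 and Ptbp1 fell by 0.32 and 0.29 (SE 0.08 and 0.09), and of the corepressors Ezh2 fell by 0.58 (SE 0.16), with edgeR adjusted p of at most 0.037.

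Set against distal epithelium, which both comparisons share, the labelled niche libraries gave 4 members higher and 5 lower, where 21.7% of genes were higher and 22.0% lower. Zeb1 differed by 0.69 (SE 0.11), Zeb2 by 0.79 (SE 0.10) and Snai1 by 1.76 (SE 0.13), and Twist1 had 72 counts against 2, a ratio of 25 (95% counting interval 6.68 to 211). Ovol2 differed by -3.32 (SE 0.75), Esrp1 by -2.07 (SE 0.32), Esrp2 by -1.89 (SE 0.27), Ovol1 by -1.56 (SE 0.36) and Grhl2 by -1.12 (SE 0.29). These calls had edgeR adjusted p of at most 0.0086, and Snai2 was not called (0.23, SE 0.23, adjusted p = 0.45). Ovol2 moved to -4.81 without labelled library 2, which held 11 of its 14 counts, and to -2.73 without library 1, which held none. With TPM the calls of Ovol1 (adjusted p = 0.084) and Grhl2 (0.12) were lost.

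The 4T1 cells were also set beside the epithelium. Cultured cells differed from distal epithelium in 8 members, 7 lower and 1 higher, where 51.0% of 18242 genes were lower and 30.5% higher and the median of all genes was -0.56. Zeb1 was 253-fold lower (log2 fold change -7.98, SE 0.26, edgeR adjusted p = 6.5e-13) and Snai2 254-fold lower (-7.99, SE 0.49, 4.1e-10), the latter -8.83 without culture library 3, which held 4 of 6 counts. Twist1 was higher, with 197 counts against 2, a ratio of 53.5 (95% counting interval 14.6 to 445). Zeb2 lay 2.59-fold, Ovol2 4.67-fold, Esrp1 2.18-fold and Esrp2 1.72-fold lower, with edgeR adjusted p of at most 0.0059. Snai1 was 1.33-fold lower (-0.41, SE 0.12, edgeR adjusted p = 0.0046), and this call was lost with library totals (0.56), without the filter (0.30), with TPM (0.12), in the fit of only these 6 libraries (0.070) and without culture library 3 (0.082). With TPM Ovol2 (adjusted p = 0.055) and Esrp1 (0.30) were not called, and with library totals Esrp2 (0.085) was not. Grhl2 (-0.02, SE 0.25, edgeR adjusted p = 0.93) and Ovol1 (0.19, SE 0.28, 0.53) did not pass the test.

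Next came 4T1 cells in vivo against niche epithelium, whose libraries held transcripts abundant in 4T1 cells, as given above. How far this made both groups alike was not tested. Ovol1, Ovol2, Esrp1 and Esrp2 did not pass the test between 4T1 cells in vivo and niche epithelium, with log2 fold changes of -0.10 (SE 0.36), 0.20 (SE 0.79), 0.31 (SE 0.29) and 0.06 (SE 0.25) and edgeR adjusted p of 0.36 or more, which does not show that they were equal. Of the 10 members 4 were lower and 2 higher in 4T1 cells, where 36.0% of genes were lower and 28.9% higher. Grhl2 was 3.21-fold higher (1.68, SE 0.27, edgeR adjusted p = 4.5e-05) and Twist1 3.76-fold higher (1.91, SE 0.33, 0.00011). Snai2 was lower by -7.29 (SE 0.48) (log2), and by -9.26 without in vivo library 2, which held 6 of its 7 counts. Zeb1 was 11.5-fold, Zeb2 2.96-fold and Snai1 2.16-fold lower, with edgeR adjusted p of at most 5.3e-07.

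The changes of the carcinoma cells (in vivo minus culture) and of the epithelium (niche minus distal) were tested against each other. Of the 10 members 6 differed, against 50.3% of all genes, and the median of all genes was 0.30. Zeb1 changed more in 4T1 cells, by 4.46 (SE 0.34, edgeR adjusted p = 9.8e-08). Twist1 changed more between niche and distal libraries, by -3.65 (SE 0.72, edgeR adjusted p = 0.00059), and so did Snai1, by -0.70 (SE 0.16, 0.0023). Twist1 in the niche stood at 18.5% to 34.2% of its in vivo level, beside 15.1% to 25.7% for the 34 genes abundant in 4T1 cells. Whether host cells of the niche expressed Twist1 was not tested. Among the epithelial regulators the fall was larger in epithelium for Grhl2 (1.71, SE 0.36, edgeR adjusted p = 0.0012), Esrp1 (1.43, SE 0.40, 0.0073) and Esrp2 (0.84, SE 0.34, 0.049). The call of Esrp2 was lost in 15 of 17 alternatives, and that of Esrp1 with TPM (0.84, adjusted p = 0.17). Ovol1, whose log2 fold changes were -3.17 and -2.82 in the separate fits, had a difference of -0.29 (SE 0.45, edgeR adjusted p = 0.64). Zeb2 (-0.19, SE 0.13, 0.24), which passed in 5 of 17 alternatives, Snai2 (0.69, SE 1.03, 0.61) and Ovol2 (2.42, SE 1.04, 0.064) were not called. Levels and fold changes come from fits scaled apart, so that ratios of levels can differ slightly from the folds.

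Esrp proteins choose exons, and the tables give no isoforms, but they give for each gene and library the mean transcript length weighted by abundance. In 4T1 cells 3 of 8 genes with known Esrp-regulated exons had lengths that did not overlap between in vivo and culture, against 28.3% of 9220 genes with several transcripts and at least 50 counts in each library. Fgfr2, a growth factor receptor, had 2528 ± 35.9 bases in vivo and 2238 ± 44.0 in culture (SD, n = 3). Numb, an endocytic adaptor, had 1605 ± 286 and 2459 ± 318 bases, and the kinase Slk 3916 ± 72.8 and 4293 ± 230. Between niche and distal epithelium Cd44, a hyaluronan receptor, was the 1 gene of 8 without overlap, with 3973 ± 48.9 against 4243 ± 99.6 bases, where 20.5% of 10103 genes did not overlap. Ctnnd1, Enah, Arhgef11 and Map3k7 overlapped in both comparisons. Of the members 4 could be compared in either comparison, and 1 did not overlap in each, against the 28.3% and 20.5% of genes above. Zeb2 had 3733 ± 94.6 bases in vivo and 4325 ± 399 in culture, and Zeb1 3140 ± 131 in the niche and 2782 ± 106 in distal epithelium. For each named gene without overlap the exact permutation test, two-sided, gave p = 0.1, and 0.4 after adjustment over all lengths compared. The value of 0.1 is the smallest that 3 against 3 libraries allow. A length does not say which exon differs.

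Over the 15 libraries the members fell into sets by their log2 levels, as Pearson's r, a description that rests on 5 groups and mainly on the contrast of 4T1 cells and epithelium. Zeb1 went with Zeb2 (r = 0.95) and Snai2 (0.94), and Ovol1 with Esrp2 (0.94). Ovol2 went with Esrp1 (0.89), and Esrp1 with Esrp2 (0.86). Snai1 ran against Grhl2 (-0.84) and Snai2 against Twist1 (-0.82). Of 13431 genes with at least 1 CPM on average, those most like Zeb1 were Gpm6b and Ccdc80 (0.994 each), like Zeb2 Il3ra and Susd6 (0.989 each), like Snai1 the membrane protease Mmp14 (0.993) and Spsb1 (0.984), and like Snai2 the Wnt feedback gene Axin2 and the guidance receptor Robo2 (0.998 each). Those most like Twist1 were the exchanger Slc9a5 (0.982) and the cell cycle inhibitor Cdkn2c (0.979), like Grhl2 Dusp18 (0.973) and Wdr6 (0.970), and like Ovol1 the polarity gene Pard6b (0.977) and Ubxn2a (0.955). Those most like Ovol2 were Dnah10, a dynein of motile cilia (0.939), and Spag16 (0.935), like Esrp1 Arhgef16 (0.979) and Grb7 (0.963), and like Esrp2 Sgsm3 (0.990) and the water channel Aqp5 (0.987). Aqp5 is among the alveolar type 1 markers above.

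On GRCm38, all members are protein-coding genes of GENCODE M21. Zeb2 (chromosome 2, 44983632 to 45117395), Ovol2 (chromosome 2, 144305175 to 144332146) and Snai1 (chromosome 2, 167538195 to 167542814) share a chromosome. Twist1 is on chromosome 12 (33957671 to 33959829), Grhl2 on chromosome 15 (37233036 to 37363569), Snai2 on chromosome 16 (14705852 to 14709385) and Ovol1 on chromosome 19 (5549136 to 5560646). Esrp1 is on chromosome 4 (11331933 to 11386783), Esrp2 on chromosome 8 (106130319 to 106136974) and Zeb1 on chromosome 18 (5591860 to 5775467). For the counting, no strand setting is given in the sources read, so reads of genes that overlap on opposite strands cannot be told apart. Zeb2 overlaps Zeb2os, an antisense gene at 0.273 to 12.1 CPM, and Grhl2 overlaps the antisense gene Gm16136 at 0.315 to 14.6 CPM. Esrp2 overlaps Nfatc3, at 10.5 to 21.0 CPM, and 1810019D21Rik, at 0.315 to 18.4 CPM, so that its values are uncertain to that extent. Snai1, Snai2 and Twist1 overlap no other gene.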

How the data were processed

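RNA-seq of 15 libraries (75-base reads, KAPA Hyper Prep, per the labels' protocols) was quantified by the authors with RSEM on GRCm38, per the submitters' processing notes; no version, aligner, annotation release or strand setting is given in the sources used here. Here, deposited estimated counts (expected counts) were rounded to whole numbers. Deposited TPM served for levels between genes, and the deposited mean transcript length per gene for the description of lengths; deposited FPKM was not used. Symbols came from GENCODE M21 (54809 of 54838 identifiers matched).

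Groups came from the titles. Genes were tested with edgeR 4.0.16 in R 4.3.3 (TMM scaling, filterByExpr, quasi-likelihood F-test, Benjamini-Hochberg adjustment over all genes, threshold 0.05), in the 6 libraries of 4T1 cells, the 9 epithelial libraries or, between cell types, all 15. The code was tested on simulated data. Alternatives were DESeq2 1.42.0, library totals, no filter, limma 3.58.1 on log2(TPM + 0.1) of genes at 0.5 TPM or more, other sets of libraries, each library left out and a replicate block. Upper-quartile scaling, leaving out pairs of libraries and the wider 4T1 panels were chosen after seeing the data. Members and gene lists were chosen with earlier results of these data known. Named beside the members were up to 4 called genes of each list with the largest change (5 CPM or more in one of the groups), and the 2 genes most like each member. A few genes that met this rule are not reported here.

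No pair of libraries in a group agreed within sampling noise. Same-numbered libraries of both niche groups deviated together (r = 0.23, 0.17 and 0.20), so that these numbers, taken from the titles, may pair those samples. The values reported come from the fit without the block, and the blocked values stand beside them where a call changed. In the other comparisons same-numbered libraries did not deviate together in this way (r of at most 0.13), which does not show that they were unpaired. Libraries of different numbers reached r = 0.24 there, for labelled niche library 1 and a distal library. Between both niche groups different numbers gave r of at most -0.03. Levels rest on 15907316 to 30421705 counts per library, and intervals cover counting error only.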

Additional observations from a re-analysis of the deposited data

Results flagged for a closer look

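For 6 of the 10 regulators the change in 4T1 cells (in vivo minus culture) differed from the change in epithelium (niche minus distal). The test was the edgeR test of the difference over all 15 libraries. On the log2 scale the difference was 4.46 for Zeb1, -0.70 for Snai1, -3.65 for Twist1, 1.71 for Grhl2, 1.43 for Esrp1 and 0.84 for Esrp2. Of all genes tested 50.3% differed in this way, a share close to that of the members, and the median of all genes was 0.30. The difference for Zeb1 ranged from 3.10 to 4.54 and that for Grhl2 from 1.29 to 1.89 over 17 alternatives, and both were called in each. Snai1 and Twist1 were called in each of the 17 as well. Esrp1 was called in 16 and Esrp2 in 2 of them. Zeb1 rests on 13 counts in the 3 culture libraries, and the part of host transcripts in its rise in vivo was not tested. Twist1 rests on 2 counts in the 3 distal libraries, and whether host cells of the niche expressed it was not tested.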

How the results depend on the processing

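The number of members called stayed at 7 for 4T1 cells in vivo against culture (13 alternatives) and at 6 for 4T1 cells in vivo against niche epithelium (12). It ranged from 8 to 9 for niche against distal epithelium (15) and for labelled niche against distal epithelium (13), from 6 to 8 for culture against distal epithelium (12), and from 5 to 7 for the difference of changes (17). For the niche labelled shSox9 against the niche it was 3, and 1 with only both groups in the fit, 4 with DESeq2, and 1 to 3 with a library left out. The 4 lengths without overlap among the genes with Esrp-regulated exons, over both comparisons, stayed 4 with a minimum of 10 counts. Low counts limit Zeb1 in culture (13 counts) and Snai2 in 4T1 cells (6 and 7). They also limit Twist1 in distal epithelium (2) and Ovol2 outside distal epithelium and culture (14 to 20). The causes of the changes below were not tested.

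Between both niche groups, whose numbers may pair the samples, the replicate block moved Zeb1 to an edgeR adjusted p of 0.067 and Grhl2 to 0.039. It changed no other call there. In the other comparisons, the replicate block left every count of calls but that of the difference of changes as it was, where Ovol2 was called (2.55, edgeR adjusted p = 0.045).

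Directions that turned belonged to values that had not passed the test, except that of Snai1 in culture against distal epithelium, at 0.22 with TPM. Snai2 in niche against distal epithelium moved to 0.11 with library totals and 0.43 with TPM. Grhl2 in culture against distal epithelium moved to 0.04 with DESeq2, 0.32 with library totals, 0.20 without the filter, 0.43 with TPM and 0.10 with only both groups. In 4T1 cells in vivo against the niche, Esrp2 moved to -0.05 with DESeq2 and -0.18 with TPM, and Ovol1 to 0.02 with library totals and 0.01 with TPM. Snai2 in the difference of changes moved to -0.37 with TPM. Without both niche libraries numbered 1, Ovol2 moved to 0.10 and Esrp1 to -0.04 under the label. With a library left out, values under the label ranged from -0.33 to 0.09 for Twist1, -1.72 to 0.36 for Ovol2 and -0.22 to 0.44 for Esrp1. Those for labelled niche against distal epithelium ranged from -0.05 to 0.41 for Snai2. Those for culture against distal epithelium ranged from -0.05 to 0.16 for Grhl2 and -0.00 to 0.39 for Ovol1. Those for 4T1 cells in vivo against the niche ranged from -0.25 to 0.29 for Esrp2, -0.28 to 0.11 for Ovol1 and -0.51 to 0.76 for Ovol2, and from -1.37 (without in vivo library 2) to 1.52 for Snai2 in the difference of changes.

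Among genes called in niche against distal epithelium 52.5% were higher, and 68.5% with library totals and 79.8% with TPM. For labelled niche against distal epithelium the shares were 49.7%, 70.9% and 82.5%. In 4T1 cells 52.9% were higher, and 65.3% with library totals. In culture against distal epithelium 37.4% were higher, and 51.8% with TPM, and in the difference of changes 57.8%, 46.8% with library totals and 34.1% with TPM. The panel of 4T1 genes was empty at limits of 50 and 0.5 CPM, and gave 22.0% and 20.3% in the niche at 10 or 20 and 1 CPM.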
